A study of Mus musculus with 49 samples.

Results

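Genes of the synaptic vesicle and of transmitter release were followed in D1- and D2-MSNs, the medium spiny neurons of the mouse nucleus accumbens that carry the dopamine receptor D1 or D2. The set was chosen by name, with earlier results of these data known, and holds 43 of the 52636 genes in the count table, all found by symbol. They are 13 synaptotagmins, 3 synapsins, 3 SV2 proteins, 3 further vesicle membrane proteins, 4 SNAREs, 4 SNARE regulators, 2 proteins of SNARE disassembly, 3 Rab3 proteins and 8 proteins of the active zone.

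Transmitter is stored in vesicles that are held near the membrane by synapsins, docked by Rab3 and by active zone scaffolds, and fused by the SNARE complex of a vesicle protein (Vamp1 or Vamp2) and 2 proteins of the plasma membrane (Snap25 and Stx1a). Some synaptotagmins, such as Syt1, are the calcium sensors that set off fusion, while others do not bind calcium. Complexins hold the complex in check, and Nsf with its partner Napb takes used complexes apart. MSNs are GABAergic projection neurons and release GABA through this machinery, and D1- and D2-MSNs send their axons to different targets.

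RNA was taken in 3 ways from mice on a C57BL/6J background, each sample from a single mouse, and the ages are not given in the sources used here. In whole cell-FACS (sorting by fluorescence), 8 D1 and 6 D2 libraries labelled male came from fresh, papain-treated tissue of mice heterozygous for a cytoplasmic fluorophore driven by the promoter of Drd1 or Drd2. In nuclear-FACS, 6 D1 and 5 D2 libraries labelled male came from sorted nuclei of frozen tissue, from Drd1-cre or Drd2-cre mice crossed to Thy1-loxPSTOPloxP-EGFP-F, in which the Thy1 promoter drives the reporter after recombination. In RiboTag, the HA-tagged ribosomal protein Rpl22 was pulled down from fresh tissue of Drd1-cre or Drd2-cre mice crossed to Rpl22-loxPexon4loxP-exon4-HA, with 6 D1 and 6 D2 libraries labelled male and 5 D1 and 5 D2 libraries labelled female. Every group therefore carried a transgene, and method goes with mouse line, tissue state and dissociation, which cannot be told apart. Cholinergic interneurons also use Drd2, so that a Drd2 driver is not limited to MSNs.

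Total counts were 10476223 to 20721407 in whole cell D1, 10850298 to 27965357 in whole cell D2, 3837701 to 68777008 in nuclear D1, 3701255 to 47079150 in nuclear D2 and 24076888 to 45641342 in RiboTag libraries. Background was estimated from the counts per kilobase on 1429 olfactory and vomeronasal receptor genes, extended over the spans of all genes. As a share of counts it was 13.5 to 52.5% in whole cell D1 and 8.35 to 36.8% in whole cell D2 libraries. It was 0.578 to 22.2% in nuclear D1 and 32.5 to 52.3% in nuclear D2 libraries, and at most 0.0629% in RiboTag libraries. The groups of nuclei did not overlap in this share. The 43 genes together took 0.305 to 0.926% of the counts of a whole cell library, 0.273 to 0.701% of a nuclear library and 0.151 to 0.203% of a RiboTag library, where the 10 highest genes alone took 85.0 to 88.3%. The labels of cell type were checked on Drd1 and Drd2. Both followed the labels in whole cell libraries (D2 minus D1 log2 fold change of -5.05 for Drd1 and 5.23 for Drd2), in nuclear libraries (-1.75 and 1.74) and in RiboTag libraries labelled male (-1.94 and 2.70) and female (-1.91 and 2.73). Penk, a D2-MSN marker, was lower in the nuclei labelled D2 (-2.41), and the D2-MSN markers Adora2a (-0.05) and Gpr6 (-1.12) were not called there. The D1-MSN markers Chrm4 (-0.78), Tac1 (-0.43) and Pdyn (-0.23) were not called in nuclei either, and Isl1 and Sp9 were not tested. In nuclei the summed CPM of 5 D2-MSN markers overlapped (177.9 to 457.2 in D1 and 287.5 to 513.5 in D2). That of 5 D1-MSN markers did so too (31.84 to 69.04 and 24.35 to 37.74). Of the RiboTag libraries labelled male, 4 of 6 D1 and 2 of 6 D2 libraries had more counts on Xist than on Y-linked genes, which goes against the label of sex. They are called "labelled male" here, and the counts of each comparison that used them are also given without these 6 libraries, an alternative chosen after seeing the data. Of the whole cell D2 samples the labels list, numbers 7 and 8 were not analysed here. Libraries carry the number in their labels, except nuclear D2 and RiboTag libraries labelled female, which are numbered by their place among the columns of the count table.

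**Figure D1:**
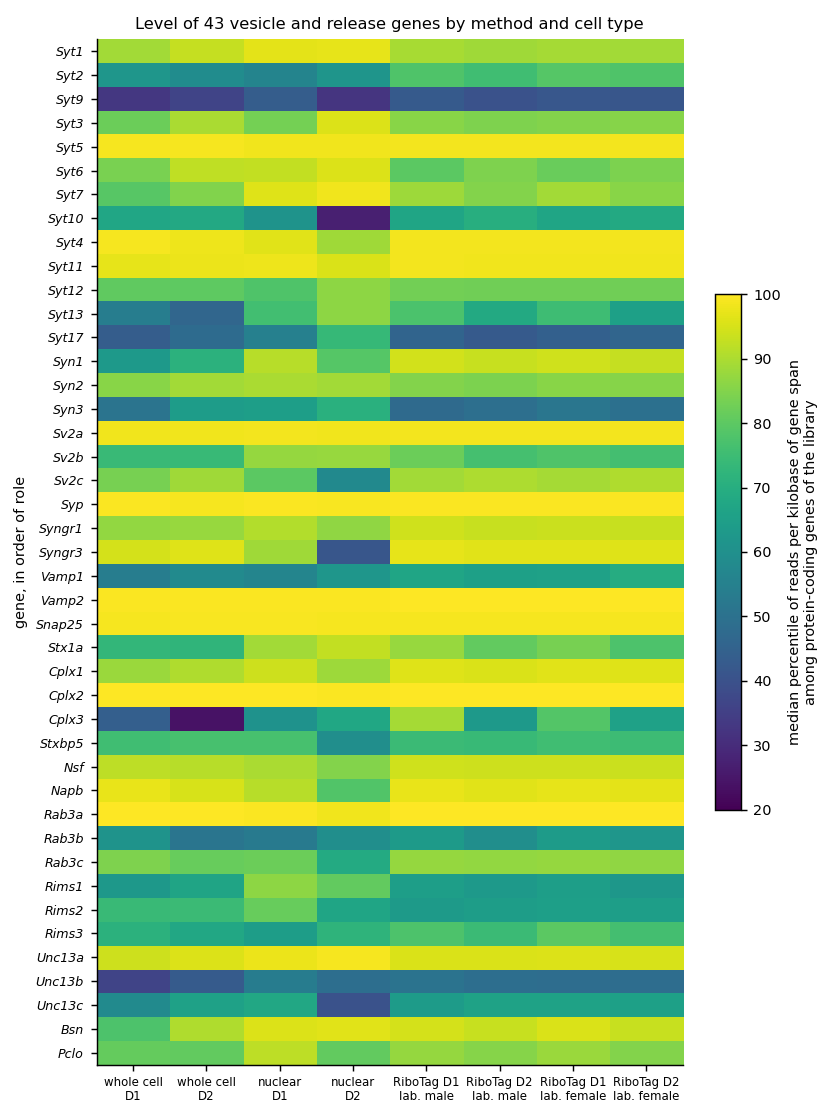
The heat map gives, for each of the 43 genes (rows, in order of role) and each group of libraries (columns), the median percentile of its reads per kilobase of gene span among the protein-coding genes of a library. Cplx2, Vamp2, Syp and Snap25 are at the upper end of the scale in all groups, and Syt9 is at the lower end.

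Levels are given as FPKM, the fragments on the whole gene per kilobase of its span (exons and introns) and per unit of library size, scaled within whole cell, within nuclear and within RiboTag libraries, so that FPKM values of different methods are not on the same scale. By span, the same 5 genes had the highest means in 7 of the 8 groups of libraries, and in nuclei of D2-MSNs Unc13a stood in the place of Rab3a. The order depends on the length used. By summed exons Syt1 (105.5 FPKM) and Snap25 (95.1 FPKM) had the highest means in whole cell D1 libraries, ahead of Cplx2 (47.8 FPKM) and Rims1 (47.5 FPKM), and Cplx2 (37.7 FPKM), Snap25 (34.7 FPKM) and Syt1 (22.9 FPKM) in RiboTag D1 libraries labelled male. Rab3a, the GTPase that ties vesicles to the active zone, had in whole cell D1 libraries 9.85, 24.1 and 31.6 FPKM (lowest, median and highest), and Cplx2, the complexin that clamps SNARE complexes, had 10.2, 20.1 and 26.2. They were followed there by Syp, the vesicle protein synaptophysin (6.79, 13.4 and 18.5), Vamp2, the vesicle SNARE (6.29, 12.0 and 19.2), and Snap25, the membrane SNARE (3.61, 9.64 and 14.9). Each of these overlapped its neighbour in the order.

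RiboTag libraries separated these levels more clearly. In those of D1-MSNs labelled male, Cplx2 (13.6 to 17.2 FPKM) overlapped Vamp2 (12.8 to 14.2), while Rab3a (11.3 to 12.0), Syp (6.67 to 7.45) and Snap25 (3.14 to 3.76) each lay wholly below the gene before. In D2-MSNs labelled male, Vamp2 (11.5 to 13.0) and Rab3a (10.7 to 12.0) overlapped. Among protein-coding genes, Cplx2 had a median percentile of 99.71 in whole cells, 99.73 in nuclei and 99.84 in RiboTag libraries labelled male, each of D1-MSNs. At the other end were Syt9, a calcium sensor of some fast synapses, with 0.00404 to 0.00781 FPKM in the same RiboTag libraries, Syt17 with 0.00616 to 0.0136 FPKM, Syn3, the third synapsin, with 0.0108 to 0.0208 FPKM and Unc13b, a priming factor, with 0.0135 to 0.0198 FPKM. Their median percentiles there were 42.64, 45.83, 47.70 and 50.38.

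Within the synaptotagmins, the vesicle calcium sensor Syt1 had 0.984, 1.79 and 2.37 FPKM in whole cell D1 libraries, and Syt5, a calcium sensor found on vesicles, had 4.36, 8.18 and 10.8. Syt4, which does not trigger fusion as Syt1 does, had 2.88, 7.76 and 14.4. In these libraries Syn2 led the synapsins (1.20, 1.49 and 1.97) by span and by summed exons. By mean FPKM per span, Syn1 was above Syn2 in nuclear D1 libraries (1.16 against 0.956) and in every RiboTag group. In RiboTag D1 libraries labelled male these means were 0.726 and 0.249, while in nuclear D2 libraries Syn1 was below Syn2 (0.791 against 0.948). In whole cell D1 libraries Unc13a, the main priming factor of the active zone, led its group by span (1.80, 2.38 and 3.49). Its mean by summed exons there, 9.23 FPKM, was below that of Rims1. Levels per kilobase of span are low for genes with long introns, such as Syt1 (chr10:108497650-109010982, minus strand, GRCm38), whose mean in whole cell D1 libraries was 1.71 FPKM by span.

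The levels were steadiest between RiboTag libraries. The median coefficient of variation of the genes was 8.79% in D1 and 8.13% in D2 libraries labelled male, 8.43% and 9.44% in those labelled female, 24.3% and 28.0% in whole cell D1 and D2 libraries and 29.0% and 16.7% in nuclear D1 and D2 libraries. Nsf, the ATPase of SNARE disassembly, varied least in 3 of the 4 RiboTag groups and Cplx3, a complexin of retina and some cortical neurons, varied most in 3 of them. For all protein-coding genes above 0.1 FPKM the medians were 9.76% and 9.46% in RiboTag libraries labelled male and 40.9% and 50.1% in whole cell libraries.

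The first question was which release genes differ between D1- and D2-MSNs. In RiboTag libraries labelled male, Stx1a, Syt13, Syt7, Sv2b and Bsn were lower and Syt6 was higher in D2-MSNs, by log2 fold changes between -0.83 and 0.45. A gene was called with an adjusted p of 0.05 or less (edgeR's quasi-likelihood test, Benjamini-Hochberg over all genes tested), a log2 fold change past 0.38 in either direction, and a mean count beyond the 25th percentile of the genes tested. Of the 33 genes tested, 5 were called lower and 1 higher in D2-MSNs, beside 1.62% called lower and 0.943% called higher of all 6784 genes tested. The median log2 fold change was -0.16 over the 33 genes and 0.00 over all genes. In bulk RNA, fewer cells of a type and less RNA per cell cannot be told apart.

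**Figure D2:**
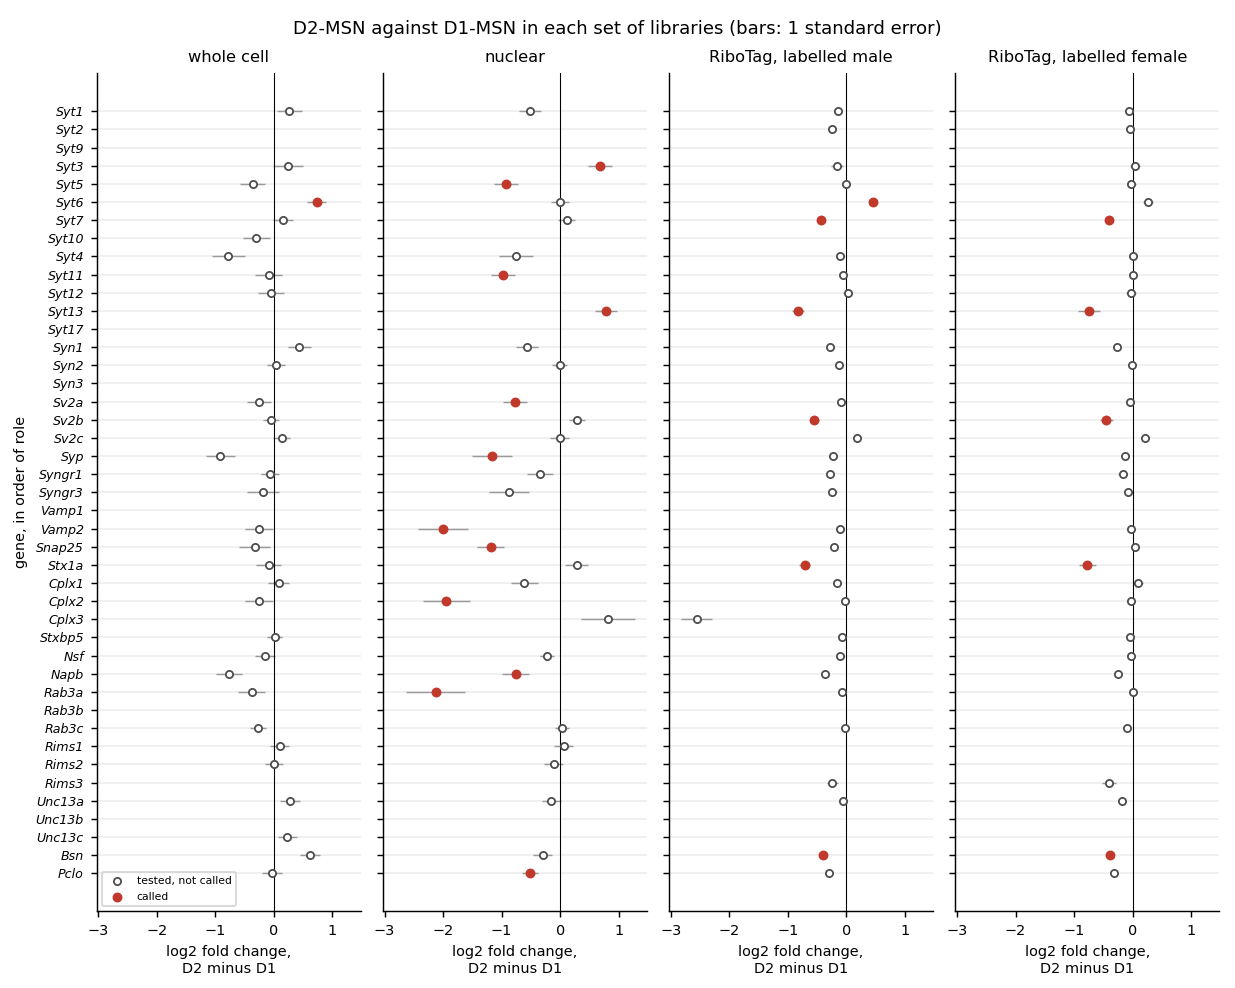
Each point is the log2 fold change of a gene, D2 minus D1, with 1 standard error as a bar, and filled points were called. Calls lie mostly to the left (lower in D2-MSNs) in nuclear and RiboTag libraries, Syt6 lies to the right in whole cell and RiboTag libraries, and genes without a point were not tested.

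Promoters are shown for the genes that carried the RiboTag result and have an entry in the RefSeq promoter table (GRCm38.p6). Each run holds 250 bases before and 50 after a start, on the gene's strand, from chr5:135023232-135023531 (plus strand) for Stx1a, chr9:108190334-108190633 (minus strand) for Bsn, chr7:75309213-75309512 (minus strand, the most upstream of 4 starts) for Sv2b and chr3:103574995-103575294 (plus strand, the most upstream of 3 starts) for Syt6. Capitals mark the GC box GGGCGG, which Sp1 factors bind, and the E-box CACGTG, on either strand.
Stx1a: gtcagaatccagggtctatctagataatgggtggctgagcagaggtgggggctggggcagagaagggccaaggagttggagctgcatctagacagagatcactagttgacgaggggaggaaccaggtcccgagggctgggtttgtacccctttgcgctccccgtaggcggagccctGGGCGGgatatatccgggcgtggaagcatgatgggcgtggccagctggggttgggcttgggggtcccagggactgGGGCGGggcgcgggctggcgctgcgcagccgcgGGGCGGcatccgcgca
Bsn: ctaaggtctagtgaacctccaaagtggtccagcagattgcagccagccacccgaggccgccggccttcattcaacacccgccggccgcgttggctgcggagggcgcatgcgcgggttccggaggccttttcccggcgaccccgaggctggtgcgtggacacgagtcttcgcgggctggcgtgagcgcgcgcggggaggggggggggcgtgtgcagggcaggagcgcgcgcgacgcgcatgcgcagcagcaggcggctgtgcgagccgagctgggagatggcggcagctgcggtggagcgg
Sv2b: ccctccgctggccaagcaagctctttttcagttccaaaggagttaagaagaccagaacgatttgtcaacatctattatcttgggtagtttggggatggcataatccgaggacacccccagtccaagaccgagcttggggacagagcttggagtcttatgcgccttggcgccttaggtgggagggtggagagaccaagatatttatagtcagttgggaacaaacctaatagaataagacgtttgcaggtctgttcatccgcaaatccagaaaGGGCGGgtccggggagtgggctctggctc
Syt6: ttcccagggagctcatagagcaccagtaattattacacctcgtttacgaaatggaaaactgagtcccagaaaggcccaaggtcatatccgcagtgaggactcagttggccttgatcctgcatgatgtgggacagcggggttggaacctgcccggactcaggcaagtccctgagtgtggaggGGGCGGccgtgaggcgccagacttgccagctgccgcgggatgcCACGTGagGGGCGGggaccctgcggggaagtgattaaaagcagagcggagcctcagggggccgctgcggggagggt
The GC box stood 3 times in the window of Stx1a, 1 time in that of Sv2b, 2 times in that of Syt6 and not in that of Bsn, and the only E-box was in that of Syt6. The cAMP response element TGACGTCA was in none of these windows. Over all 32851 promoters of the table, 35.7% held a GC box, 7.15% an E-box and 1.79% a cAMP response element. Of 41 promoters of 32 of the vesicle and release genes, 28 (68.3%) held a GC box, 6 (14.6%) an E-box and 1 (2.44%) a cAMP response element. Syt13 and Syt7 had no entry.

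Among the synaptotagmins, Syt6 (chr3:103575231-103645569, plus strand), which binds calcium and forms disulphide-linked dimers, had 0.149, 0.164 and 0.184 FPKM in RiboTag D1 and 0.202, 0.230 and 0.254 FPKM in D2 libraries labelled male (lowest, median and highest). All 6 D2 libraries lay above all 6 D1 libraries. The log2 fold change was 0.45 ± 0.0635 (SE, n = 6 and 6, edgeR adjusted p = 2.01e-05). Syt7 (chr19:10389090-10453180, plus strand), the slow, high-affinity calcium sensor of asynchronous release, had 0.313, 0.328 and 0.386 FPKM in D1 and 0.223, 0.243 and 0.279 FPKM in D2 libraries. Here the D2 libraries lay below all D1 libraries, with a log2 fold change of -0.44 ± 0.0595 (SE, edgeR adjusted p = 1.23e-05). Syt13 (chr2:92915098-92956058, plus strand), an unusual synaptotagmin that does not bind calcium, had 0.109, 0.140 and 0.174 FPKM in D1 and 0.0671, 0.0770 and 0.0885 FPKM in D2 libraries. Its groups did not overlap either, and its log2 fold change was -0.83 ± 0.104 (SE, edgeR adjusted p = 3.26e-06).

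Of the vesicle proteins, Sv2b (chr7:75114894-75309262, minus strand), one of 3 related vesicle glycoproteins, had 0.171, 0.195 and 0.238 FPKM in D1 and 0.114, 0.129 and 0.172 FPKM in D2 libraries labelled male. The highest D2 library reached the lowest D1 library. The log2 fold change was -0.55 ± 0.0792 (SE, edgeR adjusted p = 2.57e-05). Sv2c, the SV2 protein enriched in the basal ganglia, had the opposite sign, with 0.312, 0.348 and 0.38 FPKM in D1 and 0.382, 0.395 and 0.408 FPKM in D2 libraries. Its groups did not overlap, but its log2 fold change of 0.18 (edgeR adjusted p = 0.0122) stayed under the fold required for a call. Sv2a, the family member used most widely in the brain, had a log2 fold change of -0.09 (edgeR adjusted p = 0.38).

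At the membrane, the SNARE Stx1a (chr5:135023482-135051100, plus strand) had 0.235, 0.308 and 0.330 FPKM in D1 and 0.153, 0.173 and 0.209 FPKM in D2 libraries labelled male. All D2 libraries lay below all D1 libraries, and the log2 fold change was -0.71 ± 0.0915 (SE, edgeR adjusted p = 6.03e-06). Its SNARE partners moved less, Snap25 by -0.21 (edgeR adjusted p = 0.0068) and Vamp2 by -0.11 (edgeR adjusted p = 0.113). Bsn (chr9:108096022-108190384, minus strand), the active zone scaffold Bassoon, had 0.716, 0.801 and 0.930 FPKM in D1 and 0.537, 0.609 and 0.754 FPKM in D2 libraries. Its groups overlapped, with a log2 fold change of -0.40 ± 0.0711 (SE, edgeR adjusted p = 0.000409), close to the fold required. Pclo, the related scaffold Piccolo, had a log2 fold change of -0.30 (edgeR adjusted p = 0.00217), under that fold, with groups that did not overlap.

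With the adjusted p alone, without a fold, 14 genes were lower and 2 higher in D2-MSNs labelled male, beside 5.22% and 4.08% of all genes tested. The 14 were Syt1, Syt2, Syt7, Syt13, Syn1, Sv2b, Syp, Syngr1, Snap25, Stx1a, Cplx3, Napb, Bsn and Pclo, and the 2 were Syt6 and Sv2c. Cplx3 had the largest fold of the set, with 0.225, 0.375 and 0.507 FPKM in D1 and 0.0160, 0.0533 and 0.118 FPKM in D2 libraries and a log2 fold change of -2.56 ± 0.267 (SE, edgeR adjusted p = 2.12e-07), but its mean count was too low for a call. Its counts were 46 to 124 in D1 and 3 to 30 in D2 libraries. The 10 genes that did not pass the filter on low values here were Syt9, Syt10, Syt17, Syn3, Vamp1, Rab3b, Rims1, Rims2, Unc13b and Unc13c.

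**Figure D3:**
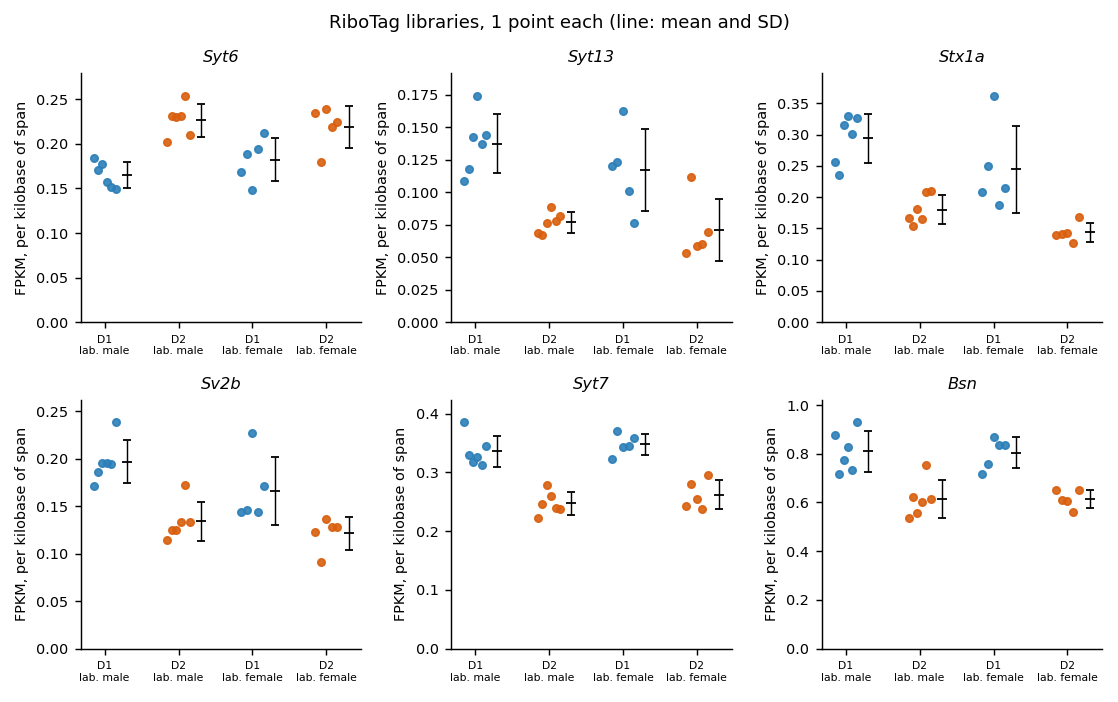
Each point is a RiboTag library (FPKM per kilobase of span on the vertical axis), with the mean and SD of its group as a line, for the 6 genes called in libraries labelled male. Syt6 is higher in D2 libraries, and the other 5 are lower in D2 libraries under both labels of sex.

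The libraries labelled female gave a further comparison of the same cell types from other mice. Stx1a, Syt13, Syt7, Sv2b and Bsn were called lower in D2-MSNs there too, 5 of 32 genes tested, and none was called higher, beside 1.18% and 0.723% of the 7057 genes tested. The 5 are 83.3% of the 6 called in libraries labelled male and 100% of those called in libraries labelled female. At an unadjusted p under 0.05 there were 14 genes in either direction, and DESeq2 called 3 lower and none higher. Sv2c was higher by edgeR's adjusted p alone (0.043), with a log2 fold change of 0.22. By the same measure 9 were lower (1.97% higher and 2.55% lower of all genes), namely the 5 called with Syn1, Unc13a, Pclo and Napb. Cplx3 was not tested there in addition to the 10 named above.

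Stx1a had 0.208, 0.25, 0.362, 0.187 and 0.215 FPKM in the 5 D1 and 0.140, 0.141, 0.142, 0.126 and 0.169 FPKM in the 5 D2 libraries labelled female, without overlap, and a log2 fold change of -0.77 ± 0.14 (SE, n = 5 and 5, edgeR adjusted p = 0.0016). Syt7 had 0.323, 0.370, 0.343, 0.345 and 0.359 FPKM in D1 and 0.242, 0.280, 0.255, 0.237 and 0.295 FPKM in D2 libraries, again without overlap (-0.41 ± 0.0632, edgeR adjusted p = 0.000244). Bsn had 0.719, 0.757, 0.870, 0.838 and 0.838 FPKM in D1 and 0.650, 0.610, 0.607, 0.561 and 0.650 FPKM in D2 libraries (-0.38 ± 0.0583, edgeR adjusted p = 0.00022), an estimate that passed the required fold by less than the rounding shows. These 3 genes had every D1 library above every D2 library. Sv2b, with 0.144, 0.146, 0.227, 0.143 and 0.171 FPKM in D1 and 0.122, 0.0912, 0.136, 0.129 and 0.129 FPKM in D2 libraries, did so as well (-0.45 ± 0.113, edgeR adjusted p = 0.023). For Syt13 the values were 0.120, 0.123, 0.162, 0.101 and 0.0766 FPKM in D1 and 0.0535, 0.112, 0.0585, 0.0605 and 0.0690 FPKM in D2 libraries, with a D2 library among the D1 libraries (-0.74 ± 0.186, edgeR adjusted p = 0.024). Syt6 had 0.168, 0.189, 0.148, 0.194 and 0.212 FPKM in D1 and 0.234, 0.179, 0.239, 0.219 and 0.225 FPKM in D2 libraries. Its groups overlapped, and its log2 fold change of 0.27 ± 0.0861 missed the threshold (edgeR adjusted p = 0.0878). Of the 5 calls, 3 were left without D2 number 3 and 2 without D2 number 4. Those lost included Syt13 (edgeR adjusted p = 0.0793 and 0.0748) and Bsn (-0.38 and -0.35), which was under the fold.

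Markers of other cell types differed between the RiboTag groups. The summed CPM of 4 glutamatergic neuron markers (Slc17a7, Slc17a6, Neurod6 and Tbr1, all with counts) was 17.5 to 42.1 in D1 and 1.37 to 11.2 in D2 libraries labelled male, and 12.5 to 36.1 in D1 and 1.9 to 7.75 in D2 libraries labelled female. That of 5 GABA interneuron markers was 18.2 to 24.2 against 10.2 to 14.4 and 19.2 to 32.6 against 8.21 to 17.2, and that of 4 cholinergic interneuron markers 0.695 to 1.55 against 4.34 to 5.71 and 0.751 to 1.32 against 2.41 to 7.40. None of these 6 comparisons overlapped. Their part in the lower values of Stx1a, Syt13, Syt7, Sv2b, Bsn and Cplx3 was not tested. The D1 library labelled female with the highest glutamatergic sum (36.1 CPM) also had the highest Stx1a (0.362 FPKM), Sv2b (0.227 FPKM) and Cplx3 (0.447 FPKM) of its group, and without it 2 genes were called in place of 5, as Syt13 had an adjusted p of 0.0595 and Sv2b (-0.31) and Bsn (-0.36) fell under the fold. Among D1 libraries labelled male the sum was highest in number 6 (42.12 CPM, with Stx1a at 0.3265 and Cplx3 at 0.4954 FPKM). There Stx1a (0.3297 FPKM) and Cplx3 (0.5071 FPKM) were highest in number 4, with a sum of 34.68 CPM.

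Without the 6 libraries that went against their label of sex, 2 D1 and 4 D2 libraries labelled male were left. Syt6 was then higher by 0.61 (edgeR adjusted p = 0.000514), and Syt13 (-0.84), Stx1a (-0.80), Sv2b (-0.67), Bsn (-0.44) and Syt7 (-0.39) were lower, all called. Napb (-0.49), the Nsf attachment protein, and Pclo (-0.44) were called lower in addition. In a fit of all RiboTag libraries with the labelled sex as a covariate, the 5 lower genes were called again, while Syt6 (0.37, adjusted p = 2.22e-05) stayed just under the fold. Both alternatives were chosen after seeing the data.

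In nuclei labelled D2, Vamp2, Snap25, Cplx2, Rab3a, Syp, Sv2a, Syt5, Syt11, Pclo and Napb were lower, and Syt13 and Syt3 were higher. Of the 3 SNAREs tested, Vamp2 and Snap25 were called and Stx1a was not, with an estimate of the opposite sign (0.28, edgeR adjusted p = 0.359). Of 31 genes tested, 10 were called lower and 2 higher, beside 9.06% and 3.18% of 9228 genes, where a call also required a standard error under the 75th percentile. The median log2 fold change was -0.35 over the 31 genes and 0.03 over all genes. The 12 genes not tested were Syt2, Syt9, Syt10, Syt12, Syt17, Syn3, Vamp1, Stxbp5, Rab3b, Rims3, Unc13b and Unc13c.

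The D1 nuclei fell into 2 sets by composition. In D1 numbers 1, 5 and 6 the 10 highest genes took 66.9, 60.9 and 63.8% of counts, and in numbers 2, 3 and 4 they took 32.5, 20.3 and 21.4%, against 5.23 to 13.9% in D2 nuclei. Without numbers 1, 5 and 6, an alternative chosen after seeing the data, 6 genes were called lower and 2 higher of 34 tested, beside 4.29% and 1.29% of 11869 genes. Vamp2 (-0.89), Snap25 (-0.92), Cplx2 (-0.94), Syt11 (-0.66) and Pclo (-0.50) were then still called lower and Syt13 (0.77) higher, with 1 further gene in each direction that was not called before. Rab3a (-0.72, adjusted p = 0.101), Syp (-0.62, adjusted p = 0.194), Sv2a (-0.50), Napb (-0.33), Syt5 (-0.80) and Syt3 (0.50) were not called, and the estimates of Vamp2, Cplx2 and Rab3a were closer to 0 by over 1 log2 unit. The part of this composition in the values was not tested.

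The nuclear values also go with background and with markers of other cell types. The background share estimated from olfactory and vomeronasal receptor genes, given above, did not overlap between nuclei of D1- and D2-MSNs. Of 7 markers of all MSNs, 4 were called lower in the nuclei labelled D2 (Ppp1r1b by -1.94, Slc32a1 by -1.64, Gad2 by -0.82 and Gad1 by -0.48), while Rgs9 (-0.69), Bcl11b (-0.11) and Foxp1 (0.07) were not. The summed CPM of the 7 overlapped (1096 to 1591 in D1 and 826 to 1258 in D2 nuclei). The summed CPM of GABA interneuron (45.9 to 111 against 132 to 237), cholinergic interneuron (10.2 to 38.6 against 41.6 to 79.3), microglia (63.4 to 145 against 146 to 211) and endothelial markers (16.2 to 128 against 157 to 288) did not overlap, while those of glutamatergic neuron, astrocyte and oligodendrocyte markers did. Of single markers of other cell types, Sst (-1.91) and Gja1 (-0.60) were called lower. All markers of these lists had counts. Their part in the values was not tested. Without the FPKM filter, the scale of the comparison moved by -1.13 for the same genes, 30 of the vesicle and release genes were called lower and none higher, and Syt13 (-0.37) and Syt3 (-0.38) turned negative without a call. In percentiles within a library by span, the median of Syt13 was 75.91 in D1 and 86.56 in D2 nuclei, that of Syt3 was 83.30 and 95.74, and that of Rab3a 99.39 and 98.15. By summed exons these medians were 84.90 and 86.69 for Syt13, with ranges that overlapped, 78.56 and 74.80 for Syt3, in the opposite direction, and 91.99 and 55.79 for Rab3a.

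Of the SNAREs, Vamp2 (chr11:69088490-69092384, plus strand) had 24.0, 16.6 and 11.7 FPKM in D1 numbers 1, 5 and 6, 5.09, 4.33 and 4.95 FPKM in D1 numbers 2, 3 and 4, and 2.37, 3.51, 3.43, 2.06 and 2.44 FPKM in the 5 D2 libraries. Snap25 (chr2:136713453-136782428, plus strand) had 3.19, 4.50 and 8.30 FPKM in D1 and 2.03, 2.65, 2.26, 1.61 and 2.56 FPKM in D2 nuclei. Both had every D2 library below every D1 library, with log2 fold changes of -2.0 ± 0.43 (SE, n = 6 and 5, edgeR adjusted p = 0.0103) and -1.19 ± 0.23 (edgeR adjusted p = 0.00923). Cplx2 (chr13:54371349-54383917, plus strand) split in the same way, with 24.9, 18.6 and 15.1 FPKM in D1 numbers 1, 5 and 6, 6.97, 4.98 and 5.47 FPKM in D1 numbers 2, 3 and 4 and 2.81, 3.36, 4.13, 2.19 and 3.93 FPKM in D2 nuclei, also without overlap (-1.95 ± 0.401, edgeR adjusted p = 0.0101). Rab3a (chr8:70754679-70758677, plus strand) had 15.2, 12.9 and 10.5 FPKM in D1 numbers 1, 5 and 6, 3.02, 2.93 and 2.01 FPKM in D1 numbers 2, 3 and 4 and 1.28, 2.04, 1.73, 1.39 and 2.55 FPKM in D2 nuclei. A D1 library lay among the D2 libraries, and the log2 fold change was -2.13 ± 0.497 (edgeR adjusted p = 0.0141). Napb, with 0.848, 1.08 and 1.93 FPKM in D1 and 0.863, 0.774, 0.723, 0.761 and 0.603 FPKM in D2 nuclei, overlapped as well (-0.76 ± 0.233, edgeR adjusted p = 0.0401).

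Of the vesicle proteins, Syp had 3.64, 6.04 and 11.6 FPKM in D1 and 1.72, 3.26, 2.57, 2.05 and 5.24 FPKM in D2 nuclei (-1.16 ± 0.338, edgeR adjusted p = 0.0344). Sv2a had 2.00, 2.95 and 4.57 FPKM in D1 and 1.48, 2.20, 1.74, 1.72 and 2.13 FPKM in D2 nuclei (-0.77 ± 0.206, edgeR adjusted p = 0.0246). The groups of both overlapped. Those of the synaptotagmins did not. Syt11, which lacks calcium binding and acts in membrane recycling, had 1.73, 2.28 and 3.79 FPKM in D1 and 1.18, 1.51, 1.58, 1.18 and 1.22 FPKM in D2 nuclei (-0.97 ± 0.207, edgeR adjusted p = 0.0103), and Syt5 had 2.06, 3.38 and 3.84 FPKM in D1 and 1.51, 1.94, 1.75, 1.72 and 1.07 FPKM in D2 nuclei (-0.93 ± 0.206, edgeR adjusted p = 0.0116). Pclo (chr5:14514918-14863459, plus strand), whose span overlaps 10 non-coding genes, had 0.962, 1.12 and 1.41 FPKM in D1 and 0.836, 0.892, 0.813, 0.683 and 0.803 FPKM in D2 nuclei, without overlap (-0.52 ± 0.134, edgeR adjusted p = 0.0219).

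The synaptotagmins Syt13 and Syt3 went the other way. Syt13 had 0.318, 0.591 and 0.701 FPKM in D1 and 0.835, 1.04, 0.781, 1.14 and 0.991 FPKM in D2 nuclei. Syt3 (chr7:44384102-44400187, plus strand), a calcium sensor with high affinity whose span overlaps 1700008O03Rik, had 0.570, 0.660 and 1.07 FPKM in D1 and 1.19, 1.08, 1.07, 1.33 and 1.64 FPKM in D2 nuclei. Neither pair of groups overlapped, for Syt3 only narrowly, and the log2 fold changes were 0.78 ± 0.189 (edgeR adjusted p = 0.0165) and 0.68 ± 0.201 (edgeR adjusted p = 0.036), which turned negative without the FPKM filter as given above. Syt13 was thus called in opposite directions in nuclei and in RiboTag libraries, and the difference between these methods was not tested.

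**Figure D4:**
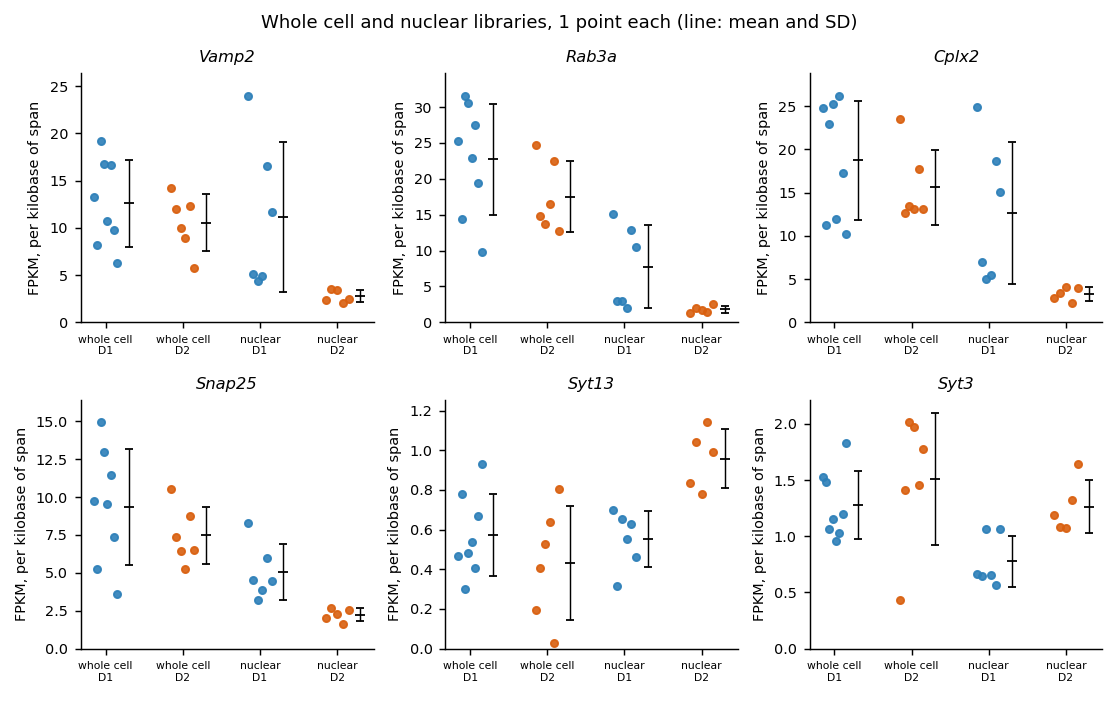
Each point is a whole cell or nuclear library, with FPKM per kilobase of span on the vertical axis and the mean and SD of the group as a line, and FPKM of the 2 methods are not on the same scale. Vamp2, Rab3a, Cplx2 and Snap25 are lower in nuclei labelled D2 than in those labelled D1, and Syt13 and Syt3 are higher there.

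The nuclear libraries were sequenced in 2 lanes, and the direction held within each lane for all 12 called genes, with 3 D1 and 2 D2 libraries in the first lane and 3 of each in the second. The D2 minus D1 differences of mean log2 values, without a test, were -2.33 and -1.21 for Vamp2, -1.53 and -0.83 for Snap25, -2.35 and -1.19 for Cplx2, -2.35 and -1.22 for Rab3a, -1.82 and -0.60 for Syp, and 0.78 and 0.86 for Syt13. With lane as a covariate, Napb lost its call (adjusted p = 0.0561). Single libraries decided several nuclear calls. Between 5 and 12 genes were called lower when 1 library was left out, and Napb, Syp, Sv2a, Pclo, Rab3a and Syt3 each lost the call without 1 or more of the libraries, Syt3 without D1 number 1, 2, 4 or 5 or D2 number 1, 4 or 5. Without D2 number 4, 5 were lower, and without D2 numbers 1, 3 or 5 the count was 6.

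In whole cell libraries Syt6 was the one gene called, higher in D2-MSNs, of 33 tested, and none was called lower, beside 0.361% and 0.703% of 16352 genes. At an unadjusted p under 0.05 there were 6 genes, and DESeq2 called 2 higher and 2 lower. Syt6 had 0.958, 1.24 and 1.47 FPKM in D1 and 1.55, 1.81 and 2.94 FPKM in D2 libraries (lowest, median and highest). All 6 D2 libraries lay above all 8 D1 libraries, with a log2 fold change of 0.73 ± 0.161 (SE, edgeR adjusted p = 0.0356). Without D1 number 8, 2 genes were called higher and 3 lower, and without D2 number 1 or 2 the count higher was 2. The adjusted p rose to between 0.0551 and 0.075 without D1 number 1, 5 or 7 or D2 number 5, and to 0.127 without the FPKM filter, with the same direction.

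The genes next to the threshold were Syp (0.0677), Bsn (0.0741) and Napb (0.0857, adjusted p from edgeR). Syp had 6.79, 13.4 and 18.5 FPKM in D1 and 3.82, 6.74 and 10.1 FPKM in D2 whole cell libraries, with a log2 fold change of -0.92. Napb had 2.08, 4.79 and 6.23 FPKM in D1 and 1.96, 2.39 and 3.41 FPKM in D2 libraries (-0.77). Bsn, which was lower in D2-MSNs in RiboTag libraries, had 0.743, 1.00 and 1.26 FPKM in D1 and 1.05, 1.63 and 1.95 FPKM in D2 libraries (0.61). The groups overlapped for all 3. The genes not tested were Syt2, Syt9, Syt13, Syt17, Syn3, Vamp1, Cplx3, Rab3b, Rims3 and Unc13b. The lanes of whole cell libraries go with cell type, so that lane and cell type cannot be told apart there.

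Over the 4 comparisons of cell types, 17 of the 43 genes were called at least once and 26 in none. Of those tested at least once these were 17 of 37, or 46.0%, beside 7.91% of all 17912 genes tested at least once. The genes were chosen with earlier results of these data known, so that this contrast is not a test of the set. By role, calcium-binding synaptotagmins had 1 call higher in whole cell libraries (of 6 tested), 1 higher and 1 lower in nuclei (of 5), and 1 higher and 1 lower in RiboTag libraries labelled male (of 6). Of the SNAREs, Vamp2 and Snap25 were called in nuclei and Stx1a in RiboTag libraries. No synapsin was called in any comparison, although Syn1 had an adjusted p of 0.000896 and a log2 fold change of -0.28 in RiboTag libraries labelled male. Unc13a, the priming factor of the active zone, had 0.803, 0.864 and 1.02 FPKM in D1 and 0.800, 0.852 and 0.908 FPKM in D2 RiboTag libraries labelled male, with 2 D1 libraries above all D2 libraries and the others among them, and a log2 fold change of -0.06 (adjusted p = 0.595). Counts were made without regard to strand and a fragment was counted for each gene it touched, so that Rab3a with Mpv17l2, Syngr1 with Rpl3, Syn1 with Araf and Timp1, Syn2 with Timp4 and Gm17482, Syn3 with Timp3 and Unc13a with Colgalt1 cannot be told apart where they overlap. The same holds for Syt6 with Atg4a-ps, Syt2 with Ppp1r12b, Syt3 with 1700008O03Rik and Syt1 with Gm5136. It also holds for Vamp1 with Tapbpl and Cd27 and for Sv2c with Gm20075 and Gm17190. Non-coding genes overlap some of the spans as well.

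Whether the cell type difference depends on the method was tested in a fit of all libraries labelled male. Between whole cell and RiboTag libraries, the difference differed for none of the 43 genes, beside 0.0368% of all 29901 genes in the positive and 0.0836% in the negative direction. At an unadjusted p under 0.05 there were 6, DESeq2 called 1, and edgeR called none without the 6 libraries against their label of sex. The largest estimates were 2.40 ± 0.864 (SE) for Cplx3 and 1.17 ± 0.33 for Bsn (edgeR adjusted p = 0.737 and 0.266). Between whole cell and nuclear libraries, 30 genes were called with a more positive D2 minus D1 difference in whole cells and none with a more negative one, beside 15.8% and 6.12%, led by Rab3a (3.07), Vamp2 (3.04) and Cplx2 (2.99). At an unadjusted p under 0.05 there were 35, and DESeq2 called 28 positive and 4 negative. Without nuclear D1 numbers 1, 5 and 6, 19 were positive. The count rests on the genes in the fit. On the 8052 genes that passed both FPKM filters, 5 of 29 were called (Cplx2 by 1.61, Vamp2 by 1.66, Rab3a by 1.68, Bsn by 0.82 and Syn1 by 0.90), beside 4.37% positive and 3.17% negative, with medians of 0.36 over the 29 and -0.14 over all. That fit was chosen after seeing the data.

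The method comparisons ask which release genes are over- or under-represented in ribosome-bound and in nuclear RNA. The scale between methods was set by the joint scaling of all libraries labelled male, so that higher and lower are relative to it. As a share of all counts, given above, the genes together took less in RiboTag than in whole cell libraries. In D1-MSNs, 34 of the 43 genes were higher in RiboTag than in whole cell libraries and 5 were lower, beside 21.3% and 59.3% of all genes, and in D2-MSNs 30 were higher and 6 lower, beside 21.9% and 59.3%. The median log2 fold change was 1.5 in D1- and 1.1 in D2-MSNs, against -1.86 and -1.87 over all genes and -0.81 and -0.85 over protein-coding genes. The background share, 8.35 to 52.5% in whole cell and at most 0.0629% in RiboTag libraries, moves with this comparison, and its part was not tested. Without the 6 libraries against their label of sex, 33 genes were higher and 4 lower in D1- and 31 and 4 in D2-MSNs. Within a cell type, the RiboTag and the nuclear comparison share the same whole cell libraries. SNARE regulators had the highest median in D1-MSNs (2.84), with all 4 higher, followed by the vesicle membrane proteins Syp, Syngr1 and Syngr3 (2.28, all 3 higher). In D2-MSNs the medians were 1.57 for the SNARE regulators, with 2 of 4 called, 1.96 for the vesicle membrane proteins and 1.86 for SNARE disassembly. In D1-MSNs, single genes reached 3.52 ± 0.285 (Syn1), 3.45 ± 0.399 (Vamp2), 3.23 ± 0.59 (Cplx3), 3.17 ± 0.235 (Bsn) and 3.01 ± 0.391 (Cplx2, SE, each called).

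The genes lower in RiboTag libraries were the same in both cell types for Syt9 (-2.43 in D1 and -2.69 in D2), Syt17 (-1.95 and -2.61), Syn3 (-1.81 and -2.11), Unc13b (-1.11 and -1.43) and Rims2, a Rab3-binding scaffold of the active zone (-0.62 and -0.67), with Rims1 (-0.48) in D2-MSNs. The first 5 had the lowest means of the set in RiboTag D1 libraries labelled male, and all 6 span more than 50000 bases. Relative to the median of all genes, 1 gene in D1- and 2 in D2-MSNs stayed lower.

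**Figure D5:**
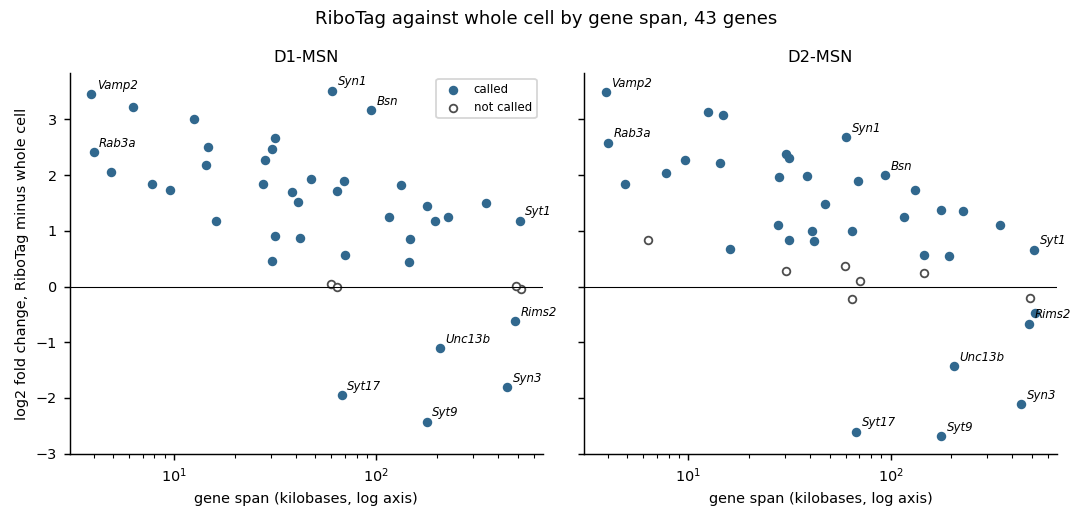
Each point is 1 of the 43 genes, with the span on a log axis and the RiboTag minus whole cell log2 fold change on the vertical axis, for D1-MSNs (left) and D2-MSNs (right). Genes of short span lie higher, with medians of 1.99 and 1.97 under 50 kilobases and 0.85 and 0.55 above.

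The span of a gene went with this difference. Over the 43 genes, Spearman's rho of the span and the log2 fold change was -0.65 in D1- and -0.64 in D2-MSNs, as a description across genes that share libraries, and over 19312 protein-coding genes it was -0.03 and -0.04. The 20 genes under 50000 bases had medians of 1.99 and 1.97, and the 23 longer ones 0.85 and 0.55. The part of intronic reads in this was not tested. In nuclei, span went with the D2 minus D1 difference as well, with a rho of 0.46 over 31 genes and medians of -0.76 for 17 short and -0.06 for 14 long genes, against a rho of 0.04 over 5333 protein-coding genes. In whole cells rho was 0.53 over 33 genes (0.21 over 9104 protein-coding genes), and in RiboTag libraries labelled male -0.03.

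The counts for nuclear against whole cell RNA differed between the cell types, as the test of the cell type difference above gives. In D1-MSNs, 16 genes were higher in nuclei and none lower, beside 10.7% and 8.44% of all genes, with Bsn (1.94 ± 0.227), Syn1 (1.83 ± 0.273), Syt7 (1.69 ± 0.216), Rims1 (1.24 ± 0.188) and Syt1 (1.20 ± 0.27) in front, and 6 of the 8 active zone genes among them. At an unadjusted p under 0.05 there were 20 genes, and DESeq2 called 3 lower. Without nuclear D1 numbers 1, 5 and 6, 8 were higher and 4 lower. In D2-MSNs, 2 were higher and 21 lower, beside 3.68% and 16.5%. The lowest were Rab3a (-3.55 ± 0.509), Cplx2 (-2.48 ± 0.458), Syngr3 (-2.31 ± 0.428), Syt4 (-2.23 ± 0.432) and Syt5 (-2.17 ± 0.349), and the higher ones were Syt13 (1.13 ± 0.322) and Unc13b (0.52 ± 0.15). The medians were 0.36 in D1- and -0.67 in D2-MSNs, against -0.32 and 0.14 over all genes. The background share of the nuclei, which did not overlap between D1 and D2, moves with these values, and its part was not tested.

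The labelled sexes were compared in RiboTag libraries. None of 33 genes differed between libraries labelled female and male in D1-MSNs (0% of 7172 genes called) or in D2-MSNs (0.0558%), and in none did the cell type difference depend on the label (0%). At an unadjusted p under 0.05 there were 7, 5 and 2 genes, and DESeq2 called none in any of the 3. The estimates reached -0.94 ± 0.285 for Cplx3 in D1-MSNs (edgeR adjusted p = 0.364) and 0.28 ± 0.0636 for Syt2 in D2-MSNs (edgeR adjusted p = 0.0744). Since 6 libraries labelled male went against that label, these values compare labels, and edgeR called none of the genes without these 6 either. For Stx1a, Syt13, Syt7, Sv2b and Bsn the female minus male values of the cell type difference were -0.06 ± 0.179, 0.10 ± 0.23, 0.02 ± 0.0894, 0.10 ± 0.154 and 0.01 ± 0.103.

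A list of 59 other genes of release and the vesicle cycle was read beside the shares over all genes given above. In RiboTag libraries labelled male 3 of 32 tested were lower in D2-MSNs (1.62% of all genes), namely Slc17a7, the vesicular glutamate transporter that marks cortical neurons (-2.64 ± 0.258), Rph3a, a Rab3 effector (-0.53 ± 0.0859), and Sncb, beta-synuclein (-0.40 ± 0.0739). In those labelled female, Slc17a7 (-2.43 ± 0.378) and Rims4 (-0.43 ± 0.0841) were lower of 33 tested (1.18% of all genes). Nuclei gave 4 lower and 1 higher of 34 tested, beside 9.06% and 3.18% of all genes, with Rimbp2, which ties calcium channels to the release site, higher (0.64 ± 0.144), and Slc32a1, the vesicular GABA transporter (-1.64 ± 0.388), and Dnm1, the dynamin of endocytosis (-0.71 ± 0.198), among the lower. In whole cell libraries edgeR called none of 36, and 9 had an unadjusted p under 0.05. Over the tested genes of this list the medians were -0.10 in RiboTag libraries labelled male (32 genes), -0.16 in nuclei (34) and -0.09 in whole cells (36). Over all genes they were 0.00, 0.03 and -0.09. In RiboTag libraries labelled female the median was -0.12 over 33 genes of the list and -0.00 over all genes.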

How the data were processed

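RNA of D1- and D2-MSNs was sequenced after ribosomal depletion as paired-end, stranded libraries. The authors aligned reads to GRCm38 with HISAT2 2.0.5 and deposited counts per gene, made with featureCounts over the whole gene body, without strand, with a fragment counted for each gene it overlapped and without multiply mapped reads. Counts were used as deposited. The lanes of a library were summed, and a column named as a repeat of whole cell D1 number 1 was summed into it. The spread between 2 columns, relative to that from sampling of reads, was 1.036 for the lanes of whole cell D2 number 3. It was 6.895 for D1 number 1 and its repeat, more than sampling alone gives. Over the 36 pairs of whole cell D1 columns it was lowest for numbers 2 and 8 (6.017), with a median of 42.25. All value columns were mapped to a sample or group.

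Each comparison was fitted over all genes in R 4.3.3 with edgeR 4.0.16 (quasi-likelihood test, TMM scaling, Benjamini-Hochberg adjustment), with DESeq2 1.42.0 as an alternative. Genes needed more than 1 FPM (fragments scaled to library size) in 2 libraries. Whole cell and nuclear comparisons also required an FPKM of 1 in a library and at most 50000, and RiboTag comparisons an FPKM of 0.1 in 2 libraries. Method comparisons used the first filter only, on all libraries labelled male. A call required an adjusted p of at most 0.05 and an absolute log2 fold change above 0.38, and within a method a mean count above the 25th percentile and, in nuclei, a standard error under the 75th. Standard errors were derived from the log2 fold change and the F statistic. The fit was tested on simulated data. Replicates were single mice, and replicate numbers did not pair the samples. The genes named are those called in a D2 minus D1 comparison and the highest of each functional group, with further genes of the lists given as values. The members and lists were chosen with earlier results of these data known. From the lists of markers and other release genes, 2 genes were left out and are not reported here. Alternatives changed the tool, scaling, filters, gene length, background, block, lanes and libraries, and those chosen after seeing the data are named as such.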

Additional observations from a re-analysis of the deposited data

Results flagged for a closer look

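In 8 of 160 groups of libraries of the 20 named genes, a library stood apart from the others of its group by Dixon's test, which chance alone gives in about 1 of 20 groups. Sv2b had such a library in 3 groups, at 0.548 FPKM in nuclear D1 (others from 0.798), 0.238 in RiboTag D1 labelled male (others to 0.196) and 0.172 in RiboTag D2 labelled male (others to 0.134). Pclo reached 0.361 FPKM in RiboTag D1 labelled male (others to 0.306) and 0.269 in RiboTag D2 labelled female (others to 0.246). The others were Syt13 at 0.112 FPKM in RiboTag D2 labelled female (others to 0.0690), Vamp2 at 13.9 in RiboTag D1 labelled female (others to 12.5) and Stx1a at 1.24 in whole cell D1 (others to 0.971).

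The D2 minus D1 difference was more positive in whole cells than in nuclei for 17 named genes, by an interaction term in edgeR without the FPKM filter. The log2 estimates were 1.85 for Syt5, 2.01 for Syt6, 1.26 for Syt7, 2.15 for Syt11, 1.24 for Syn2, 1.79 for Sv2a, 0.87 for Sv2b, 3.04 for Vamp2, 2.12 for Snap25, 0.88 for Stx1a, 1.5 for Syp, 2.99 for Cplx2, 3.07 for Rab3a, 1.64 for Unc13a, 2.20 for Bsn, 1.72 for Pclo and 1.29 for Napb. With both FPKM filters, Cplx2, Vamp2, Rab3a and Bsn of these were called. The estimates of Stx1a (-0.46), Sv2b (-0.42), Napb (-0.08), Syt7 (-0.03) and Syn2 (-0.02) were then negative, without a call. Those of the remaining named genes stayed positive, without a call. Without the 3 nuclear D1 libraries that stood apart in composition, 19 of all 43 genes were positive in place of 30. The part of the background share of the nuclei in these values was not tested.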

How the results depend on the processing

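Of the alternatives to counts of called genes, 221 gave a count within 1.5 times of that reported and 67 did not, and of those to single genes 401 kept the call or its absence, 30 gained and 74 lost a call, and 12 reversed. All counts below are of the vesicle and release genes. In whole cells, the count higher in D2 (1) was 2 with DESeq2, 2 with its size factors, 2 with the repeat of D1 number 1 as its own library and 0 without the FPKM filter, without any filter and by summed exons, and ranged from 0 to 2 with 1 library left out. The count lower (0) was 2 with DESeq2, 1 with the repeat as its own library and 0 to 3 with 1 library left out. In nuclei, the count higher (2) was 0 without the FPKM filter, without any filter and by summed exons, 1 with background subtracted and 1 to 3 with 1 library left out, and the count lower (10) was 30, 29 and 30 under those 3 filters and 5 to 12 with 1 library left out. Under those filters, in this order, 4 genes reversed, Syt13 (-0.37, -0.36 and -0.33), Syt3 (-0.38, -0.36 and -0.33), Sv2b (-0.87, -0.85 and -0.82) and Syt7 (-1.03, -1.01 and -0.98), as these filters shift the scale. In RiboTag libraries labelled male, the count higher (1) was 2 by the adjusted p alone and 0 with all RiboTag libraries and sex as a covariate, and the count lower (5) was 14 by the adjusted p alone and 4 to 6 with 1 library left out. In those labelled female, the count higher (0) was 1 without any filter and 1 by the adjusted p alone, and the count lower (5) was 3 with DESeq2, 2 without the FPKM filter, 2 by summed exons, 9 by the adjusted p alone and 2 to 5 with 1 library left out. For nuclear minus whole cell, the count lower in D1 (0) was 3 with DESeq2, 3 with its size factors and 2 with background subtracted, and the count higher in D2 (2) was 4, 4 and 4 under these and 1 relative to the median of all genes. For RiboTag minus whole cell, the counts lower (5 and 6) were 1 and 2 relative to that median. The cell type difference of whole cell minus RiboTag had 1 positive with DESeq2 (0 reported), and that of whole cell minus nuclear had 4 negative with DESeq2 and 3 with its size factors (0 reported) and 5 positive on filtered genes (30 reported). Without any filter, 1 gene was called higher in D1 libraries labelled female and 1 in those labelled male, with 0 to 1 with 1 library left out. Without the 3 nuclear D1 libraries with over 50% of counts in 10 genes, 6 genes were lower in D2 nuclei (10 reported), 8 higher and 4 lower in nuclei than in whole cells of D1-MSNs (16 and 0 reported) and 19 positive for whole cell minus nuclear (30 reported). The cause of these changes was not tested.

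A replicate block in the fit of whole cells gave 0 genes higher and 2 lower (Syp and Napb) in D2-MSNs. Deviations of same-numbered libraries correlated by -0.29 to 0.105 over 6 pairs in whole cells and by -0.0546 to 0.0740 over 6 in RiboTag libraries labelled male, so that they share only a number, and 0 and 2 correlated best with their own number. For nuclei and for RiboTag libraries labelled female, no block was fitted. Each sample came from a single mouse, and D1 and D2 libraries came from different mouse lines, so that the design holds no pairs of D1 and D2 samples. The column numbers of the nuclear D2 libraries and of the RiboTag libraries labelled female also do not match those of the labels.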
